A study of Mus musculus with 14 samples.

Results

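The outer pyramidal layer of CA3 in Dcx mutant mice was compared with CA3 of wild-type mice on 10 of the 14 bead arrays of the series. The members were chosen by sample title: the 5 arrays titled outer hold the external stratum pyramidale (SPE) of mutant mice 147, 146, 165, 166 and 148, and the 5 arrays titled WT hold CA3 of wild-type mice 145, 206, 142, 199 and 144. All animals were adults of the Sv129Pas background. The genotype field reads Dcx for the mutants, which the design text calls knockouts, and the altered part of Dcx is not stated. WT CA3 was dissected undivided, so the comparison sets 1 layer against the whole field. The other 4 arrays hold the internal stratum pyramidale (SPI) of mutant mice 147, 146, 166 and 148 and enter only where the layers are set side by side. The brain region field of all 5 outer samples carries the code SPI beside the word external; titles were followed. RNA came from pooled microdissected pieces, and each title names 1 animal, so the animal was taken as the replicate.

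Doublecortin, the product of the X-linked gene Dcx, binds and stabilises microtubules in migrating neurons, and human mutations in the gene disturb the layering of the cortex. In mice that lack it, the pyramidal cells of CA3 settle in separate layers instead of a single band. CA3 pyramidal cells receive the mossy fibres of dentate granule cells and send their axons to CA1. The title of the study concerns the Golgi apparatus, which sorts and glycosylates secreted and membrane proteins, and mitochondria, which make most of a neuron's ATP.

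A bead array reports 1 fluorescence intensity per probe, and its detection p-value says how the probe ranks among negative-control beads. Mean raw signal was 411 ± 82.2 intensity units in SPE and 456 ± 54.1 in WT (SD, n = 5 each), with p = 0.373 in a two-sided exact permutation test over the 252 splits of the arrays. Probes with a detection p under 0.05 numbered 11225 ± 697 in SPE and 11618 ± 286 in WT (p = 0.302 in the same exact test, 0.373 adjusted over both tests). SPE 148 stood apart. It had the lowest mean signal, 279 units, the fewest detected probes, 10123, and a score of 43.3 on a first principal component that held 45.1% of the variance, while the other 9 arrays lay between -12.7 and 0.70. It was the lowest or highest of the 10 arrays for 60.6% of features, against 9.40% to 25.5% for each other array. For that reason a value without SPE 148 stands beside each named difference or list median that it moves by over 1.5 times or in sign. Of the medians of 51 gene lists 34 moved so, 6 of them in sign. The labels and tables carry no slide or scan, so no batch could be examined.

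**Figure D1:**
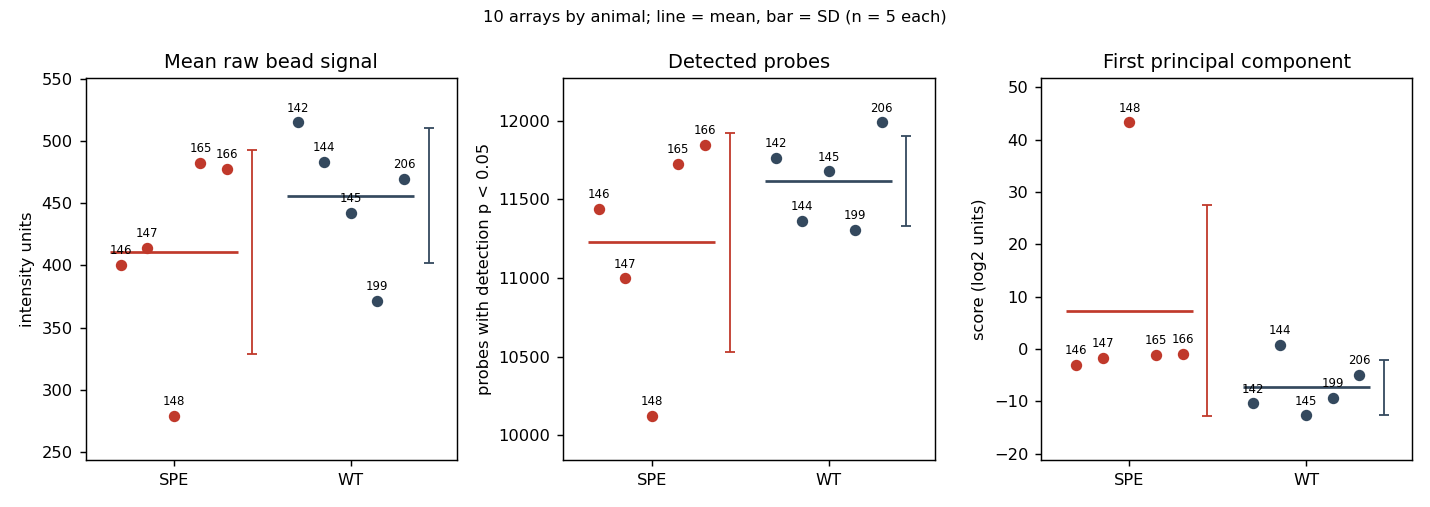
Mean raw bead signal (intensity units), number of detected probes and score on the first principal component for the 5 SPE and 5 WT arrays; points are arrays labelled by animal number, lines are group means and bars are SD. SPE 148, at 279 units, 10123 probes and a score of 43.3, lies apart from the other 9 arrays.

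No gene passed the test between the outer layer and WT CA3. After background correction, quantile normalisation and log2, 8818 features were tested, of which 8174 were named genes and 644 were probes without a name. With limma and Benjamini-Hochberg adjustment over these features, 0 were called at an adjusted p under 0.05 (percent called: 0), and the smallest adjusted p was 0.555. At an unadjusted p under 0.05 there were 767 features (8.7%), of which 436 (4.94%) were higher and 331 (3.75%) lower in SPE. For 148 features (1.68%) all 5 SPE arrays lay on one side of all 5 WT arrays, 77 (0.873%) higher and 71 (0.805%) lower. Their median absolute difference was 0.36 on the log2 scale.

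The shifts were graded and small. SPE minus WT differences had a median of 0.037 and an SD of 0.19 on the log2 scale, and their 5th and 95th percentiles were -0.33 and 0.30. A difference above 1.2-fold was seen for 711 features in the higher and 677 in the lower direction, one above 1.5-fold for 8 and 44. Only 1 feature, Lypd1, passed 2-fold, on the lower side. The 95% confidence interval of the difference lay within 2-fold either way for 8682 features (98.5%) and within 1.5-fold for 7241 (82.1%). Precision followed brightness: the median standard error was 0.15 for the 2940 dimmest features and 0.11 for the 2939 brightest, of which 9.93% and 5.68% had an unadjusted p under 0.05.

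The width of this distribution rested partly on SPE 148. Without that array, 539 of 9036 features (5.97%) had an unadjusted p under 0.05 and again 0 were called (limma, smallest adjusted p 0.421). The SD of the differences was then 0.14, and the share above 1.2-fold was 6.86%, against 15.7% with it. Of the 767 features, 439 (57.2%) also had an unadjusted p under 0.05 without SPE 148. The median SD within a group was 0.21 in SPE and 0.18 in WT, and 0.14 in SPE without that mouse. The balance of directions depended on scaling: of the features under an unadjusted 0.05, 56.8% were higher in SPE with quantile normalisation, 51.6% without SPE 148 and 1.82% with median scaling, which moved the median difference of all features to -0.14.

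**Figure D2:**
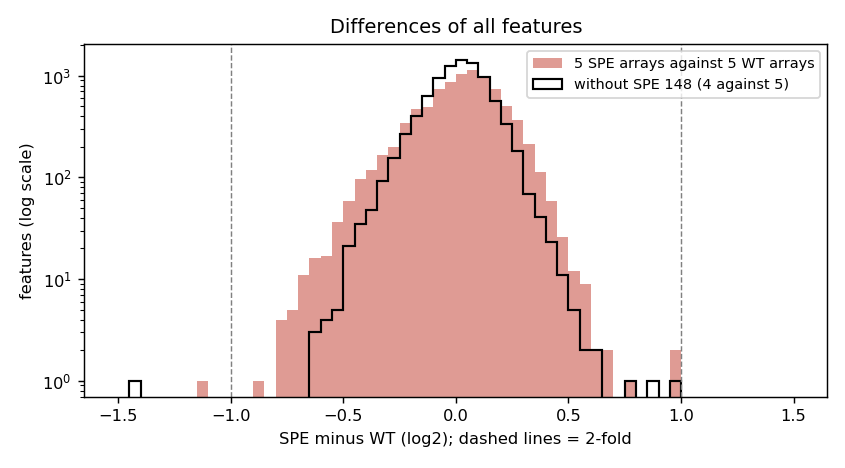
Histogram of SPE minus WT differences (log2) over all features, on a log scale of feature counts; the filled bars use 5 SPE and 5 WT arrays, the outline leaves out SPE 148. The filled distribution has an SD of 0.19 and the outline 0.14, and 1 feature lies below the lower 2-fold line in each.

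**Figure D3:**
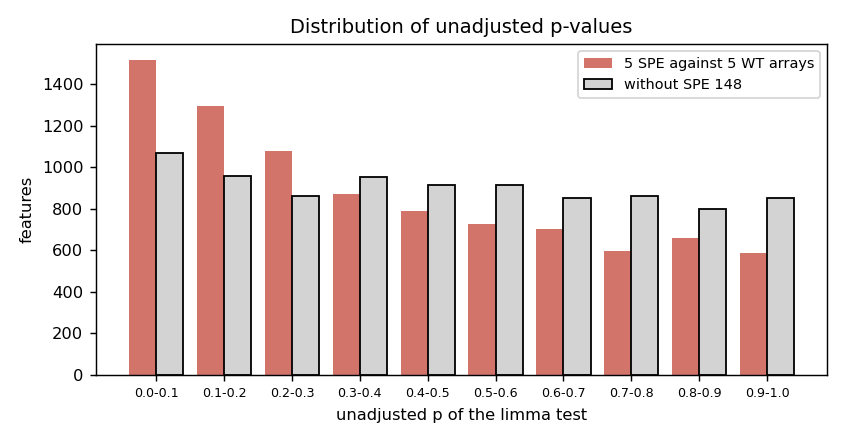
Number of features in each of 10 equal ranges of the unadjusted limma p-value, with all 10 arrays (red) and without SPE 148 (grey). With all arrays 1518 features lie below 0.1 and 587 above 0.9, against 1068 and 852 without SPE 148.

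Dcx itself was read by a dim probe. Its raw bead signal was 127, 117, 148, 123 and 109 units in SPE mice 147, 146, 165, 166 and 148, against 161, 163, 153, 122 and 167 units in WT mice 145, 206, 142, 199 and 144. After normalisation its log2 signal was 5.52, 5.19, 5.74, 4.95 and 5.98 in SPE, against 6.11, 6.11, 5.66, 5.66 and 6.10 in WT. The probe was detected on all 10 arrays. SPE 147, 146 and 166 lay below every WT array, and SPE 165 and 148 lay among them. SPE minus WT was -0.45 ± 0.19 (SE; limma adjusted p = 0.555) and -0.59 without SPE 148, with the same sign in a further Dcx probe. Since the labels do not give the altered part of Dcx, the probe checks nothing about the genotype. The Dcx-related kinases Dclk1, Dclk2 and Dclk3, which carry doublecortin domains, differed by 0.24 ± 0.11, 0.16 ± 0.12 and 0.014 ± 0.16, and none passed. Without SPE 148 Dclk1 differed by 0.14 and Dclk2 by 0.055. With median scaling Dclk2 and Dclk3 lay below 0. Their 95% intervals ended at 0.48, 0.42 and 0.36 on the higher side. On SPE 148 Dclk1 and Dclk2 stood at 10.49 and 10.66, above all other arrays.

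A core clock gene had one of the smallest p-values. Arntl encodes BMAL1, which with CLOCK binds E-boxes and drives the period genes, and the ROR and REV-ERB receptors act on Arntl in turn through sites that contain AGGTCA. Among clock genes, only windows of Arntl, Per1 and Rora were examined, and those of other clock genes named below were not. Windows with a match are shown, on mouse chromosome 7 for Arntl and 11 for Per1, genes whose differences had opposite signs. Each runs from 250 bases before to 50 after a start. Sequences are from RefSeq, GRCm38.p6, plus strand. Capitals mark AGGTCA or its reverse complement TGACCT and the E-box CACGTG.
Arntl, chr7:113207261-113207560: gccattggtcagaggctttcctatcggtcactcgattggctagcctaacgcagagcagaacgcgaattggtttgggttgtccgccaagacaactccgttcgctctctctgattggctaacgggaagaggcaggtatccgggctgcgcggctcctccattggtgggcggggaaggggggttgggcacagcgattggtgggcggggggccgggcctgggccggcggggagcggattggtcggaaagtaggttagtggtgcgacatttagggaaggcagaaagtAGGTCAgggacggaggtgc
Per1, chr11:69098699-69098998: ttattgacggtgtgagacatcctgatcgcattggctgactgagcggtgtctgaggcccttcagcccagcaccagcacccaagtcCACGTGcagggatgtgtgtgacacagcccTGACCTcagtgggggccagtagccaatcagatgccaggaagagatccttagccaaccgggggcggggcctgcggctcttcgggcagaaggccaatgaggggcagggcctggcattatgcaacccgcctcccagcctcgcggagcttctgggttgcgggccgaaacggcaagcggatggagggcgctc
The AGGTCA of Arntl begins 31 bases after the start, and in Per1 CACGTG begins 166 and TGACCT 137 bases before it. The other window of each gene in the table holds neither motif, and neither does the window of Rora on chromosome 9. Searched on both strands, AGGTCA occurs in 16.3% and CACGTG in 7.15% of the 32851 promoter windows. These matches describe letters only, and binding was not tested.

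Arntl had log2 signals of 6.57, 6.43, 6.30, 6.53 and 6.57 in SPE, against 6.08, 5.80, 6.12, 5.75 and 6.11 in WT, and every SPE array lay above every WT array. The difference was 0.51 ± 0.11 (SE; 1.42-fold, limma adjusted p = 0.555) and 0.49 without SPE 148. Rora, the receptor RORα, lay the other way, at 5.92, 6.22, 6.29, 6.36 and 6.06 in SPE, against 6.58, 6.55, 6.39, 6.56 and 6.54 in WT. Its groups did not overlap either, with a difference of -0.35 ± 0.10 (adjusted p = 0.555). Per1, a period gene and repressor of BMAL1, stood at 7.87, 7.70, 7.98, 7.77 and 7.99 in SPE, against 7.71, 8.31, 8.09, 8.38 and 8.24 in WT. It differed by -0.28 ± 0.13, and WT 145 fell among the SPE arrays. Bhlhe40, a repressor in the same loop, differed by 0.21 ± 0.17, or 0.13 without SPE 148, and lay below 0 with median scaling, while Nr1d1, the receptor REV-ERBα, differed by 0.28 ± 0.20 and Ciart, a further repressor, by -0.37 ± 0.27. The list labelled positive arm also names repressors, Cry1 and Bhlhe41 among them, neither measured here. Neither the list nor its measured genes are therefore read as activators alone. Of its 5 measured genes 4 had a difference above 0 (median 0.15). Of the 10 measured E-box and D-box targets 4 did (median -0.15, or -0.087 without SPE 148). Over all features the share above 0 was 58.7% and the median 0.037. With median scaling, where the median of all features was -0.14, these lists had medians of -0.063 and -0.37. None of these genes was called. The hour of dissection is not stated in the labels.

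The 12 named genes with the smallest p on the higher side had differing roles. Map1lc3b encodes LC3B, the protein that coats autophagosome membranes, and had the smallest p of these. It read 8.44, 8.33, 8.30, 8.24 and 8.59 in SPE, against 8.00, 7.80, 7.93, 7.76 and 7.93 in WT. All SPE arrays lay above all WT arrays, by 0.49 ± 0.10 (SE; 1.41-fold, 95% interval 0.29 to 0.70, limma adjusted p = 0.555), and by 0.44 without SPE 148. On the raw scale the groups overlapped, at 252 to 453 units in SPE and 257 to 416 in WT, so the separation appears after normalisation. Retreg1, a receptor that sends endoplasmic reticulum to autophagosomes, stood at 9.00, 9.02, 8.91, 8.92 and 8.89 in SPE, against 8.69, 8.24, 8.71, 8.43 and 8.44 in WT, again with no overlap (0.45 ± 0.10). Cog2, a subunit of the complex that tethers vesicles at the Golgi, stood at 6.29, 6.37, 6.42, 6.33 and 6.57 in SPE, against 5.75, 5.81, 5.80, 6.26 and 5.86 in WT. WT 199 came within reach of the lowest SPE array and the difference was 0.50 ± 0.11. The autophagy list, which holds Map1lc3b, had 14 of 28 measured genes above 0, against 58.7% of all features. Its median was -0.0014, or 0.0036 without SPE 148.

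The other 8 genes on the higher side, Arntl aside, were Zfp667 and Zfp3, which encode zinc-finger proteins, Ascc2, a subunit of an RNA and DNA repair complex, Ninl, a centrosome protein, Nol4, Map2k1, which encodes the kinase MEK1, Plod1, a collagen-modifying lysyl hydroxylase, and Cpeb1, which binds messenger RNA and controls its polyadenylation. Their differences ran from 0.34 ± 0.09 for Zfp3 to 0.65 ± 0.17 for Map2k1, all with a limma adjusted p of 0.555. Map2k1 read 6.21, 6.06, 6.29, 6.57 and 6.68 in SPE, against 5.12, 5.97, 5.93, 5.65 and 5.88 in WT. The lowest WT array, 145, lay well under the other 4. Cpeb1 read 7.49, 7.73, 7.53, 7.64 and 8.32 in SPE, against 7.12, 7.08, 7.39, 7.14 and 7.22 in WT, and its difference of 0.55 ± 0.15 was 0.41 without SPE 148. Nol4 was the only 1 of the 12 whose groups overlapped. These 12 were picked by p on the same arrays, which favours genes without overlap. Over all features the groups did not overlap for 1.68%.

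On the lower side the smallest p belonged to Tmsb10, which encodes thymosin β10, a protein that binds actin monomers. It read 7.89, 8.07, 8.02, 7.88 and 7.87 in SPE, against 8.29, 8.26, 8.58, 8.65 and 8.50 in WT, and the groups did not overlap. The difference was -0.51 ± 0.10 (SE; 1.43-fold, 95% interval -0.73 to -0.29, limma adjusted p = 0.555) and -0.49 without SPE 148. In raw signal it ranged from 182 to 390 units in SPE and from 404 to 595 in WT. Slc32a1, the transporter that loads GABA into vesicles, read 10.13, 9.91, 9.75, 10.06 and 9.74 in SPE, against 10.45, 10.22, 10.34, 10.36 and 10.50 in WT. Every SPE array lay below every WT array, by -0.46 ± 0.11. Sez6, a membrane protein of dendrites, stood at 7.54, 7.36, 7.47, 7.29 and 7.28 in SPE, against 7.79, 7.78, 7.64, 7.93 and 7.78 in WT, also apart (-0.40 ± 0.09). Cbln1, a secreted organiser of synapses, read 6.29, 6.01, 5.95, 5.83 and 6.06 in SPE, against 6.60, 6.57, 6.58, 6.12 and 6.54 in WT, with WT 199 among the SPE arrays and a difference of -0.46 ± 0.12.

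The remaining 8 of the 12 on the lower side were Asl, an enzyme of the urea cycle, 1700037C18Rik, Strada, which activates the kinase LKB1, Ybx3, an RNA- and DNA-binding protein, Myg1, Ccl25, a chemokine, Cers1, a ceramide synthase of neurons, and Hspbp1, a cofactor of HSP70. Their differences ran from -0.71 ± 0.18 for Cers1 to -0.36 ± 0.08 for Ybx3. Several were near background: Strada and Cers1 were detected on 2 of 5 SPE arrays and on 5 of 5 WT arrays. Ybx3 was detected on 0 of 5 SPE arrays and on 5 of 5 WT arrays, with mean log2 signals of 4.62 in SPE and 4.99 in WT (limma adjusted p = 0.555). It passed the detection filter through the WT arrays alone, so its difference gives no firm size.

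**Figure D4:**
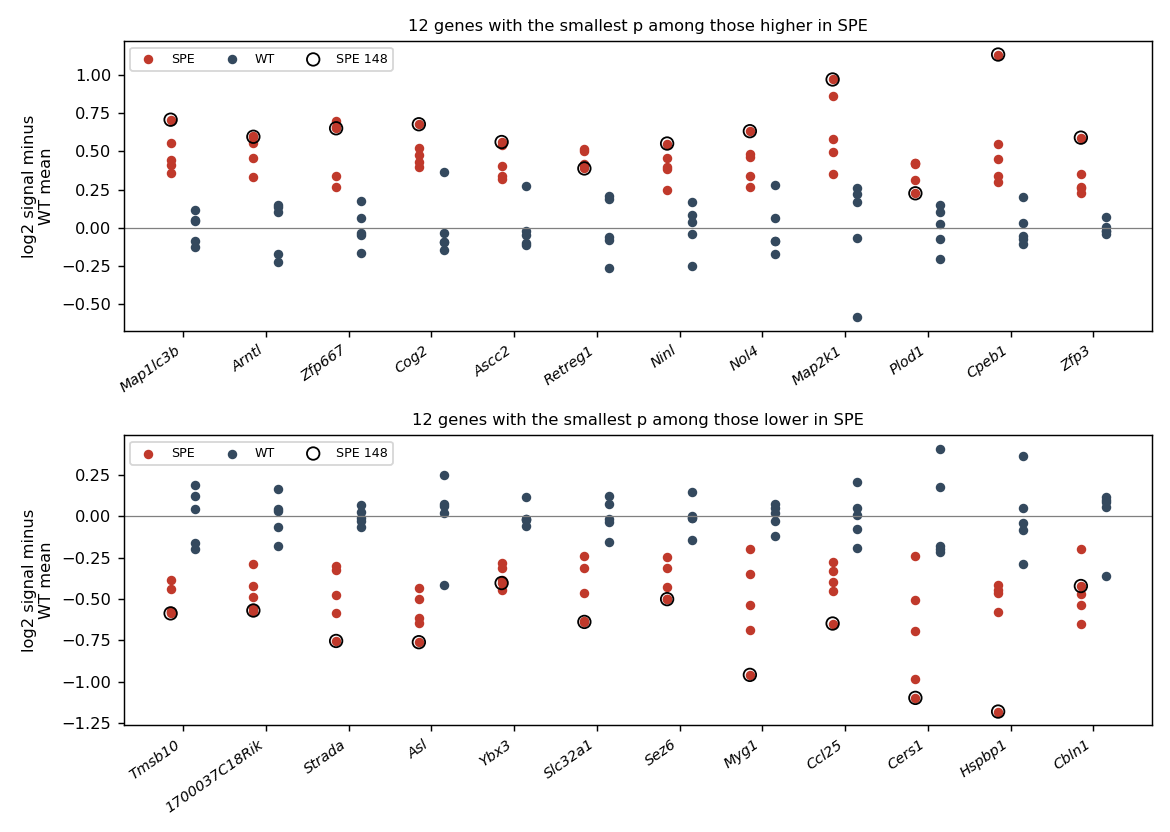
Log2 signal minus the WT mean for the 12 genes with the smallest unadjusted p on the higher side (top) and on the lower side (bottom), SPE arrays in red to the left and WT arrays in dark grey to the right for each gene; the open circle marks SPE 148. Most genes show groups that do not overlap, which their choice by p on these arrays favours (1.68% over all features). Differences run from 0.34 to 0.65 above and from -0.71 to -0.36 below.

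The largest differences were less evenly shared among animals. Lypd1, named here after its values were seen as the only feature past 2-fold, encodes a membrane-anchored modulator of nicotinic acetylcholine receptors. It read 7.92, 8.32, 8.71, 7.67 and 9.60 in SPE, against 9.35, 9.38, 9.82, 8.87 and 10.45 in WT. The 4 SPE arrays other than 148 lay below all WT arrays, and SPE 148 lay among them. The difference was -1.13 ± 0.35 (SE; 2.19-fold, 95% interval -1.89 to -0.38, limma adjusted p = 0.555) and -1.42 without SPE 148. Of the 6 largest differences on the lower side among features whose groups did not overlap, 5 were those of Cers1, Atp5pb, a subunit of ATP synthase, Tceal3, Ppp5c, a protein phosphatase, and Bcl2l1, which encodes the survival protein BCL-XL. In the last 4 of these SPE 148 was far below the other SPE arrays. Atp5pb stood at 8.97 on SPE 148 and at 10.39 to 10.65 on the other SPE arrays, against 10.69 to 11.17 in WT. Leaving that mouse out, the differences were -0.48 in place of -0.79 for Atp5pb, -0.49 in place of -0.76 for Tceal3, -0.51 in place of -0.68 for Ppp5c, whose other probe had the opposite sign, and -0.43 in place of -0.68 for Bcl2l1. Ccdc117, on the higher side, differed by 0.50 ± 0.21 with that mouse and by 0.28 without it.

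Golgi genes had a median difference near 0. Of 71 listed genes of Golgi structure and vesicle coats 53 were measured, 27 of them with a difference above 0, and the median was 0.0033 (0.0052 without SPE 148), against 0.037 over all features, while their mean level was lower in SPE. With median scaling the median was -0.19, against -0.14 over all features. None was called, 4 were higher and 1 was lower at an unadjusted p under 0.05. Over all features 58.7% were above 0, and 4.94% were higher and 3.75% lower at that p. Beside Cog2, the tether subunit Cog8 read 9.94, 9.90, 9.66, 9.94 and 10.30 in SPE, against 9.82, 9.42, 9.55, 9.66 and 9.69 in WT, a difference of 0.32 ± 0.12 with overlap. St3gal2, a Golgi sialyltransferase, differed by 0.28 ± 0.11. Of 36 measured genes of export from the endoplasmic reticulum and retrieval 16 were above 0 (median -0.036). Rab1b, a GTPase of transport to the Golgi, read 8.44, 8.47, 8.73, 8.76 and 7.60 in SPE, against 8.84, 9.00, 9.11, 9.00 and 8.76 in WT. All SPE arrays but 166 lay below the WT range, and the difference was -0.54 ± 0.19, or -0.34 without SPE 148. Of its 2 other probes 1 shared this sign. Kdelr2, a receptor that returns proteins to the endoplasmic reticulum, differed by -0.64 ± 0.25, and by -0.35 without SPE 148, where it stood at 4.55. The level of the Golgi list, the mean over its genes of an array's deviation from the gene's mean over the 10 arrays, was -0.11 on SPE 148, from 0.0012 to 0.037 on the other SPE arrays, and from -0.026 to 0.048 in WT.

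Mitochondrial genes of the respiratory chain had medians below 0 and no call. Of 37 genes of complex I 32 were measured, 9 of them above 0 (28.1%, against 58.7% of all features), with a median of -0.060, and 4 were lower and 0 higher at an unadjusted p under 0.05 (0 called by limma). At that p 3.75% of all features were lower and 4.94% higher. Without SPE 148 the complex I median was -0.062 and 2 of its genes were lower. Ndufs3, a core subunit, read 10.71, 10.87, 11.01, 10.63 and 10.30 in SPE, against 10.96, 11.28, 11.06, 11.21 and 11.08 in WT. Only SPE 165 lay inside the WT range, and the difference was -0.41 ± 0.13 (SE; limma adjusted p = 0.555). Ndufc2, an accessory subunit, differed by -0.46 ± 0.15. For complexes II to V, 40 of 43 genes were measured, 17 were above 0 and the median was -0.025. Beside Atp5pb, Sdhb of complex II differed by -0.34 ± 0.12 and Cox6a1 of complex IV by -0.29 ± 0.11. Fis1, a fission factor of the outer membrane, read 11.10, 11.20, 11.12, 11.20 and 10.70 in SPE, against 11.28, 11.47, 11.34, 11.59 and 11.21 in WT. Its groups did not overlap (-0.31 ± 0.12). Its list of fission, fusion, transport and import had 19 of 36 measured genes above 0 and a median of 0.020, and the mitochondrial ribosome had 43 of 65 above 0 and a median of 0.045, or 0.028 without SPE 148. Median scaling put both medians below 0, at -0.15 and -0.12, and complex I at -0.22. Levels of the complex I list ran from -0.10 to 0.011 in SPE and from -0.066 to 0.14 in WT.

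No gene of the microtubule cytoskeleton or of the migration machinery listed here was called. Of 20 measured microtubule-associated proteins 8 were above 0 (median -0.041, but 0.0022 without SPE 148), and Map1lc3b was the only 1 under an unadjusted p of 0.05. The 20 measured Lis1 and dynein regulators had 11 above 0 (median 0.034, or 0.0068 without SPE 148) and none under it. Pafah1b1, which encodes LIS1 and acts with dynein in migration, differed by 0.22 ± 0.11 (SE; limma adjusted p = 0.555), by 0.25 without SPE 148, and lay below 0 with median scaling. Of 12 kinesins 4 were above 0 (median -0.029, or -0.017 without SPE 148). For comparison, 58.7% of all features were above 0, with a median of 0.037, and 8.7% had an unadjusted p under 0.05. Among 12 tubulins the median was 0.044, but -0.0089 without SPE 148, and the mean level was lower in SPE. With median scaling the tubulin median was -0.076 and that of the dynein regulators -0.12. Tuba1a, the α-tubulin of young neurons, read 11.02, 11.08, 11.43, 11.38 and 10.07 in SPE, against 11.50, 11.84, 11.71, 11.66 and 11.49 in WT. The groups did not overlap, and the difference was -0.64 ± 0.21, or -0.41 without SPE 148. Probes for near-identical tubulin genes can cross-hybridise, and the part of this in the difference was not tested.

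**Figure D5:**
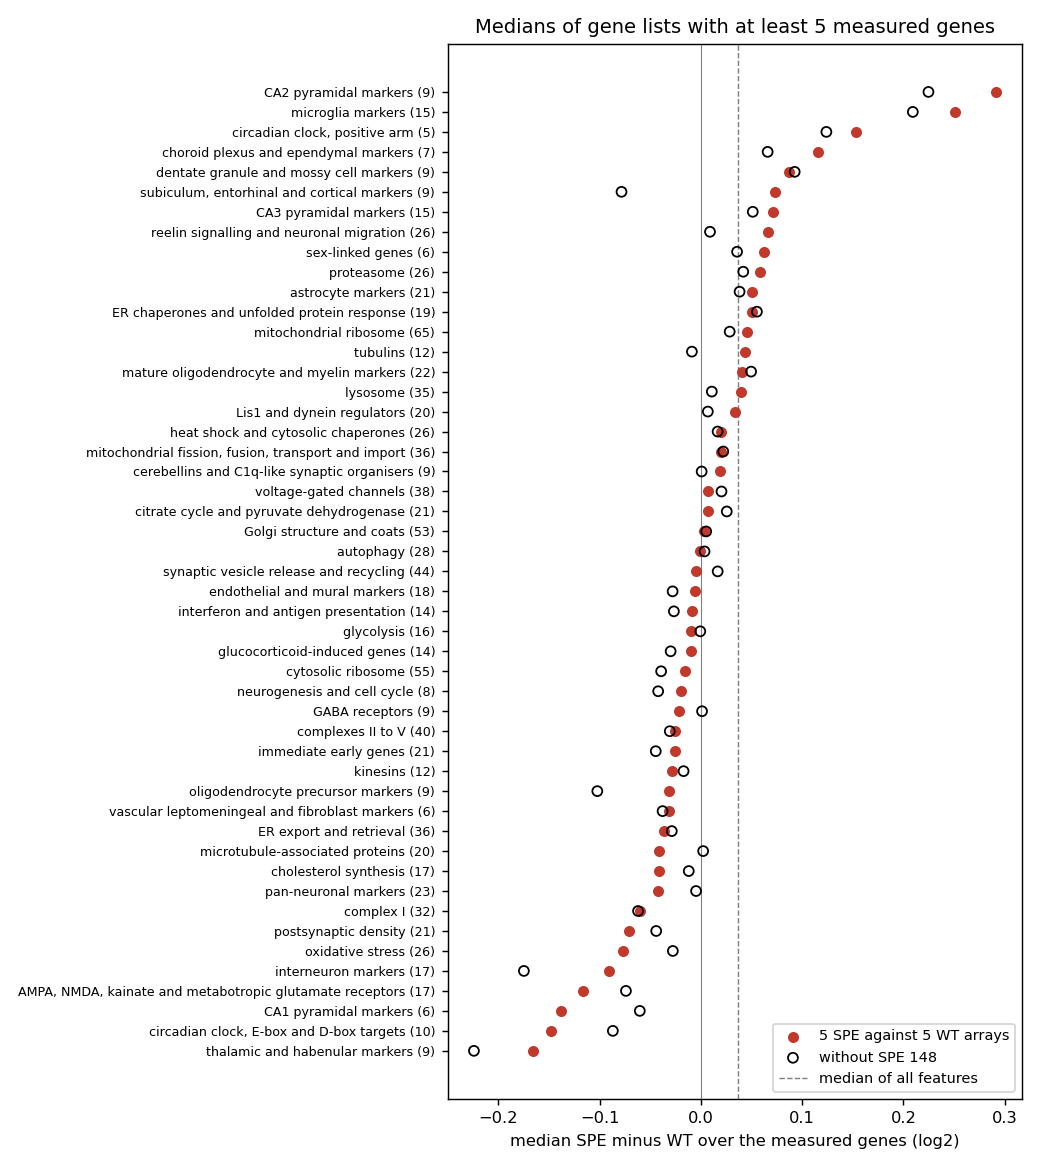
Median SPE minus WT difference (log2) over the measured genes of each list with at least 5 of them (number in parentheses), with all arrays (red) and without SPE 148 (open circles); the dashed line is the median of all features, 0.037. Lists run from CA2 pyramidal markers at 0.29 and microglia markers at 0.25 down to thalamic and habenular markers at -0.17.

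Markers of cell types describe the RNA of the dissected pieces as far as their probes detected it. Snap25 and Nefl, listed as pan-neuronal markers, were detected on 0 arrays. A marker detected on 0 arrays therefore cannot be read as absent from the tissue. In bulk tissue, fewer cells of a type and less RNA per cell cannot be told apart. Of 21 listed markers of CA3 pyramidal cells 15 were measured, 9 were above 0 and none had an unadjusted p under 0.05 (median 0.071). Of all features 58.7% were above 0, with a median of 0.037, and 8.7% had an unadjusted p under 0.05. Nectin3, an adhesion protein of CA3, read 11.08, 11.40, 11.57, 11.47 and 11.29 in SPE, against 11.24, 11.13, 11.21, 11.09 and 11.18 in WT. SPE 147 was the lowest of all arrays and the other 4 were the highest, a difference of 0.19 ± 0.10 that the 2 other Nectin3 probes did not share in sign. Grik4, a kainate receptor subunit of these cells, differed by 0.19 ± 0.13 and lay below 0 with median scaling, and Iyd differed by 0.25 ± 0.18, or 0.15 without SPE 148. With median scaling the median of the list was -0.094. These CA3 markers were read in both groups, and a difference between the groups was not detectable at this precision.

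CA2 markers had the highest median of the lists, 0.29, with 8 of 9 measured genes above 0 and 2 higher at an unadjusted p under 0.05. Over all features 58.7% were above 0 and 4.94% higher at that p. With median scaling the CA2 median was 0.11. The level of this list was 0.64, -0.33, -0.029, 0.040 and 0.44 in SPE mice 147, 146, 165, 166 and 148, against -0.13, -0.36, -0.18, 0.16 and -0.25 in WT. The spread among SPE mice spanned nearly the whole range, with 147 and 148 high and 146 among the lowest. Sostdc1, a secreted antagonist that also marks the choroid plexus, read 6.96, 5.88, 6.48, 6.59 and 6.08 in SPE, against 6.08, 5.70, 5.98, 6.22 and 5.75 in WT (0.45 ± 0.18). Stard5, a sterol carrier, differed by 0.49 ± 0.24, or 0.28 without SPE 148, where it stood at 6.91. Ccdc3, the brightest CA2 marker named, read 11.33, 11.00, 11.02, 11.19 and 11.21 in SPE, against 11.01, 10.91, 10.86, 10.96 and 10.81 in WT. SPE 146 was the only SPE array below the highest WT array, and the difference was 0.24 ± 0.09 (SE; limma adjusted p = 0.555). Pcp4, a defining marker, was detected on 0 arrays.

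Microglial markers had the second-highest median of the lists. Of 31 listed markers 15 were measured, 13 had a difference above 0, 5 were higher and 0 lower at an unadjusted p under 0.05, and the median was 0.25 (0.21 without SPE 148 and 0.085 with median scaling). Without SPE 148, 3 of 16 were higher at that p. Over all features 58.7% were above 0 and 4.94% higher at that p. The level of the list was 0.13, 0.090, -0.027, 0.099 and 0.22 in SPE, against -0.13, -0.22, -0.095, -0.0082 and -0.060 in WT. SPE 165 lay just below WT 199, and the other SPE arrays lay above all WT arrays. P2ry13, a purinergic receptor, read 5.68, 5.54, 5.50, 5.50 and 5.90 in SPE, against 5.53, 4.97, 5.38, 5.10 and 5.05 in WT (0.42 ± 0.13). Tmem119, a surface marker of resident microglia, read 5.95, 5.49, 5.63, 5.73 and 5.92 in SPE, against 5.32, 5.36, 5.38, 5.39 and 5.58 in WT (0.34 ± 0.11). In both genes a single WT array, 145 or 144, reached into the SPE range. Olfml3, a secreted protein of these cells, differed by 0.32 ± 0.11. These are dim probes, and P2ry12 and Itgam were detected on 0 arrays. The adjusted p was 0.555 for all 3 named genes, and no microglial gene was called.

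Interneuron markers lay mostly below WT: 5 of 17 measured were above 0, 3 were lower and 0 higher at an unadjusted p under 0.05, and the median was -0.090, or -0.17 without SPE 148 and -0.25 with median scaling. Over all features 58.7% were above 0 and 3.75% lower at that p. Beside Slc32a1, Pvalb, the calcium buffer of fast-spiking interneurons, read 11.15, 10.91, 10.80, 10.62 and 11.27 in SPE, against 11.24, 11.25, 11.39, 11.38 and 11.28 in WT. SPE 148 alone reached the WT range, and the difference was -0.36 ± 0.12, or -0.44 without that mouse. Nxph1, a ligand of neurexins in inhibitory neurons, differed by -0.25 ± 0.11. The level of the list ran from -0.20 to 0.18 in SPE and from -0.045 to 0.21 in WT, the 0.18 being SPE 148. Of 6 measured CA1 markers 1 was above 0 (median -0.14, or -0.060 without SPE 148). Mpped1 differed by -0.22 ± 0.09 with no overlap, while Wfs1, which marks CA1, differed by -0.20 ± 0.23 with SPE 148 and by 0.062 without it.

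Neighbouring tissue gave mixed values, set here beside 58.7% of all features above 0 and their median of 0.037. Thalamic and habenular markers had 1 of 9 measured genes above 0 and the lowest median, -0.17. That 1 gene, Tnnt1, read 6.76, 6.49, 6.88, 7.01 and 6.85 in SPE, against 5.40, 6.91, 6.47, 6.43 and 5.63 in WT (0.63 ± 0.24). Cbln1 and Rora are on this list too. Choroid plexus and ependymal markers had 5 of 7 measured genes above 0 (median 0.12, but 0.066 without SPE 148 and -0.044 with median scaling), and Calml4, detected on 4 of 5 SPE arrays and 1 of 5 WT arrays, differed by 0.59 ± 0.21. Ttr, the most abundant plexus transcript, was detected on at most 4 of the 10 arrays and was not tested. Among astrocyte markers 13 of 21 (61.9%) were above 0, near the share of all features (median 0.051, but -0.16 with median scaling). Cldn10, a claudin of astrocytes, read 9.32, 9.42, 9.24, 9.49 and 9.48 in SPE, against 9.18, 9.01, 9.18, 9.03 and 9.23 in WT, apart by 0.26 ± 0.09, although 2 further probes had the other sign. Of 3 measured blood genes Hbb-b2, a β-globin, differed by 0.32 ± 0.15. The part of such tissue in the differences above was not tested.

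Synaptic, ribosomal and lysosomal genes were also without a call. Ionotropic and metabotropic glutamate receptor genes with their auxiliary subunits had 4 of 17 measured above 0 (median -0.12, and -0.074 without SPE 148). Cacng8, an AMPA receptor partner, differed by -0.25 ± 0.11, and Cacng4, detected on 1 of 5 SPE arrays and 5 of 5 WT arrays, by -0.41 ± 0.12. Kcnip2, a partner of A-type potassium channels, read 6.53, 6.31, 6.63, 6.74 and 5.82 in SPE, against 6.98, 7.11, 7.43, 7.24 and 6.59 in WT (-0.66 ± 0.19). WT 144 alone reached the SPE range. Nptx2, a secreted pentraxin induced by activity, read 10.32, 9.62, 9.75, 10.36 and 9.55 in SPE, against 9.78, 8.26, 9.20, 10.04 and 8.97 in WT (0.67 ± 0.29), with wide spread in both groups. The cytosolic ribosome had 25 of 55 measured genes above 0 (median -0.016, or -0.039 without SPE 148), 7 lower and 1 higher at an unadjusted p under 0.05. Over all features 58.7% were above 0, and 3.75% were lower and 4.94% higher at that p. Rps9 differed by -0.40 ± 0.13 without overlap, or -0.28 without SPE 148. Its other probe had the opposite sign, and the mean of both probes differed by -0.028. Rps7 differed by -0.51 ± 0.18, or -0.33 without it. Npc2, a lysosomal carrier of cholesterol detected on 5 of 5 SPE arrays and 3 of 5 WT arrays, differed by 0.33 ± 0.11. The lysosome list had 20 of 35 measured genes above 0 (median 0.040, or 0.011 without SPE 148), 2 higher and 2 lower at an unadjusted p under 0.05. Those lower were Ctsa, the protease cathepsin A, by -0.53 ± 0.21, and Atp6v1g1, a subunit of the proton pump, by -0.42 ± 0.15 without overlap, or -0.26 without SPE 148. Over the whole collection, 25 of the 51 lists had a median above 0, and 3 with median scaling, while 0 genes were called and 0 lists had levels that separated the groups.

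Genes that were lower in SPE than in WT went both ways in the inner layer of the same mutants. In a limma fit of all 14 arrays with the animal as a random block, 1917 of 9355 features (20.5%) were called between SPI and SPE, 1014 (10.8%) higher and 903 (9.65%) lower in SPI. The count was 356 with the animal as a fixed replicate block over the 4 mice with both layers, and 1065 with no block. The same fit called 0 between SPE and WT, with 358 at an unadjusted p under 0.05. The comparisons share the SPE arrays, so values are given side by side only. Lypd1 was 2.58 ± 0.29 higher in SPI than in SPE (limma adjusted p = 2.81e-05), against an SPE minus WT difference of -1.13. Cbln1 was 1.93 ± 0.10 higher in SPI (adjusted p = 5.16e-08), Slc32a1 1.65 ± 0.16, Pvalb 1.41 ± 0.10, Nxph1 1.30 ± 0.12 and Mpped1 1.06 ± 0.09. Each of these genes had a negative SPE minus WT difference. Other genes with a negative SPE minus WT difference were called lower again in SPI. They were Tceal3 (-1.66), Atp5pb (-1.56), Atp6v1g1 (-1.47), Kcnip2 (-0.97), Rab1b (-0.85), Myg1 (-0.46), Asl (-0.42) and Ndufs3 (-0.39). Cldn10 and Tmem119 were higher in SPI by 1.04 ± 0.10 and 0.70 ± 0.11 and had positive SPE minus WT differences. Nectin3 was lower in SPI, at -0.60 ± 0.12 (adjusted p = 0.00343). Map1lc3b (0.037 ± 0.11), Arntl (-0.014 ± 0.10) and Cog2 (0.080 ± 0.13) were not called between the layers.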

How the data were processed

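RNA of 14 CA3 samples was hybridised to Illumina mouse bead arrays, of which 10 carry the comparison of the outer mutant layer with WT. The authors deposited a bead intensity per probe on a linear scale, not normalised between arrays, and a detection p-value per probe and array in the deposited table; the submitters' processing notes list BeadStudio without a version, and how it treated background is not stated. A second table of normalised intensity values, deposited by the authors, kept each array's probe ranks (Spearman correlation of 1 after rounding, medians of 104) and was used as an alternative. Its scale is linear, and its method is not stated.

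From the first table, values were background-corrected with limma's neqc, which takes the negative-control mean and variance from the detection p-values and adds an offset of 16, then quantile-normalised over the 10 arrays and put on the log2 scale. Of 25697 probes, 11415 reached a detection p under 0.05 on 5 or more of the arrays. The platform annotation named 23978 probes with 1 symbol and 0 with several, and left 1719 unnamed; 23962 were found by Entrez identifier in a RefSeq table, and 0 symbols were updated. The brightest probe on average stood for a gene, which left 8818 features. Groups came from the sample titles. limma 3.58.1 (R 4.3.3) fitted group means with eBayes, two-sided, adjusted by Benjamini-Hochberg over all features. Errors printed after ± are standard errors for differences and SD for group means. SPI against SPE used all 14 arrays with animal as a random block (consensus correlation 0.319), since mice 147, 146, 166 and 148 gave both layers. The number of arrays limits the precision. The fits were tested on simulated data with known differences.

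Members and the 51 gene lists were chosen with earlier results of these data known. Named genes are the 12 smallest p-values each way, the 6 largest differences each way whose groups do not overlap, up to 3 genes per list by p, the doublecortin family and the sex-linked genes; Lypd1 was added after its value was seen, and the text gives a selection of the genes so named. Of the 6 largest lower differences 1 is not reported here. Alternatives covered background, scaling, the deposited normalised table, detection filters, probe summary, array weights, a signal covariate, the variance prior, the 14-array fit and leaving out each array.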

Additional observations from a re-analysis of the deposited data

Results flagged for a closer look

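For a gene, a list level or an array measure, 212 groups of arrays were examined. In 24 the highest or lowest array lay apart from the others of its group by Dixon's 95% criterion. Among independent, unselected groups chance alone meets it in about 1 in 20. These groups share the same 10 arrays. Their genes were picked largely by p or size of difference on those arrays, so 24 of 212 cannot be read against that rate. In 16 of the 24 groups the array apart was SPE 148. Its first principal component score was 43.3, against -2.98 to -0.97 on the other SPE arrays, and the Golgi list level was -0.11, against 0.0012 to 0.037. It was apart on the low side for Hspbp1 (8.25), Atp5pb (8.97), Tceal3 (7.14), Ppp5c (8.35), Bcl2l1 (5.48), Fis1 (10.70), Atp6v1g1 (7.72), Rab1b (7.60), Kdelr2 (4.55), Rps9 (9.84), Kdm5c (4.44) and Wfs1 (5.71), all log2 signals, and on the high side for Ccdc117 (7.15) and Dclk2 (10.66). The part of this array's low signal in those values was not tested.

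Among WT arrays, WT 199 was apart for kinesins list level (-0.11), Cog2 (6.26), Ascc2 (5.66) and Cbln1 (6.12), WT 142 was apart for microtubule-associated proteins list level (0.10) and Rora (6.39) and WT 144 was apart for Ybx3 (5.10) and Tmem119 (5.58).

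The mutant layers differed from each other, by the limma test of SPI minus SPE, in 26 of the 83 genes followed through the settings (31.3%, against 20.5% of all features). The inner layer was higher for 14: Lypd1 (2.58), Cbln1 (1.93), Slc32a1 (1.65), Pvalb (1.41), Pou3f1 (1.35), Nxph1 (1.30), Mpped1 (1.06), Cldn10 (1.04), Tnnt1 (0.85), Dclk3 (0.83), Tmem119 (0.70), P2ry13 (0.56), Sez6 (0.43) and Retreg1 (0.35). It was lower for 12: Tceal3 (-1.66), Atp5pb (-1.56), Atp6v1g1 (-1.47), Kcnip2 (-0.97), Rab1b (-0.85), Nectin3 (-0.60), Calml4 (-0.59), Myg1 (-0.46), Pafah1b1 (-0.42), Asl (-0.42), Ndufs3 (-0.39) and Ccdc3 (-0.37). These are log2 differences with adjusted p-values under 0.05, and they share the SPE arrays with the comparison to WT. The 83 genes were picked largely by p or size of the SPE to WT difference. Their share therefore cannot be read against that of all features.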

How the results depend on the processing

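No paired analysis was possible because the SPE and WT arrays come from different animals whose numbers do not match. In all 22 other settings limma again called 0 features between SPE and WT. Features at an unadjusted p under 0.05 numbered 385 with median scaling, 451 with the log2 mean raw signal as a covariate, 358 in the 14-array fit and 1303 of 18312 with no detection filter, against 767; leaving out 1 array at a time gave 539 (SPE 148) to 924 (SPE 165). Features whose groups do not overlap numbered 70 with median scaling, 239 with no detection filter and 231 with every probe as a feature, against 148; leaving out 1 array at a time, which leaves smaller groups, gave 176 (SPE 148) to 390 (WT 144) and moved the count by over 1.5 times for each array but SPE 148 and WT 206. Intervals within 2-fold numbered 18131 with no detection filter, where more features are tested. Between SPI and SPE, with mice shared by both layers, 1065 features were called without the replicate block and 356 with the animal as a fixed replicate block over 4 animals, against 1917. The cause of the moves without a stated reason was not tested.

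For 72 of 83 genes the difference kept its sign in every setting, and 29 of 1814 values reversed, all of genes without a call. With median scaling Dclk2 became -0.0052, Dclk3 -0.21, Ddx3x -0.050, Grik4 -0.042, Bhlhe40 -0.038 and Pafah1b1 -0.013. With the covariate Dclk3 became -0.046, Eif2s3x 0.066, Kdm5c 0.018 and Ddx3x -0.016. With array weights Eif2s3x became 0.015 and Wfs1 0.014, and with probes averaged per gene Cldn10 became -0.042. Uty became 0.0025 without background correction and 0.0023 in the deposited normalised values. Leaving out 1 array at a time, differences ran from -0.12 to 0.11 for Dclk3, -0.13 to 0.070 for Uty, -0.073 to 0.049 for Eif2s3x, -0.20 to 0.023 for Kdm5c, -0.031 to 0.22 for Ddx3x and -0.29 to 0.062 for Wfs1. The medians of the 51 lists kept their value within the spread in 1046 of 1122 cases, and 5 lists did so in every setting; with median scaling 3 were above 0, against 25. Dim probes, such as those of Strada, Cers1 and Ybx3, limit what a low signal can show.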

Other observations

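Further gene groups were read on these arrays, again with 0 called. Of 22 measured myelin and mature oligodendrocyte markers 14 were above 0 (median 0.041), and of 9 oligodendrocyte precursor markers 3 were (median -0.031, and -0.10 without SPE 148). Genes of the response to oxidative stress had 12 of 26 above 0 (median -0.077, or -0.028 without SPE 148), those of cholesterol synthesis 6 of 17 (median -0.041, or -0.012 without SPE 148), and immediate early genes, which neurons induce on firing, 9 of 21 (median -0.025, or -0.045 without SPE 148). The share over all features was 58.7%. Voltage-gated channel genes had 19 of 38 above 0 and synaptic vesicle genes 22 of 44.

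The labels give no sex, and the sex of the animals was not tested. Xist, of the sex-linked list, had 2 probes, detected on 0 arrays. The Y-linked gene Eif2s3y was detected on all 10 arrays and read 6.24, 6.05, 6.37, 6.12 and 7.02 in SPE, against 5.70, 6.29, 5.93, 5.73 and 5.98 in WT, a difference of 0.43 ± 0.18 (limma adjusted p = 0.555) that was 0.27 without SPE 148. Uty, the other Y-linked gene measured, was detected on all 10 arrays too and differed by -0.0065 ± 0.14, or -0.13 without SPE 148. The X-linked genes Kdm6a, Eif2s3x, Kdm5c and Ddx3x differed by 0.25 ± 0.13, -0.018 ± 0.11, -0.12 ± 0.17 and 0.13 ± 0.17, and without SPE 148 by 0.16, 0.049, 0.023 and -0.031.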
